A study of Mus musculus with 8 samples.

Results

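The immediate early and AP-1 genes Fos, Fosb, Fosl1, Fosl2, Jun, Junb, Jund, Egr1, Atf3 and Myc were measured by RNA-seq in neonatal cardiomyocytes (NCMs) after in utero exposure to diesel exhaust. They were picked by name, through the Entrez identifiers of the count table, and all 10 were found among its 27179 genes and among the 14966 genes with enough counts for testing. C57Bl/6J dams breathed filtered air (FA) or diesel exhaust (DE) from E0.5 to E17.5 of gestation, and NCMs were isolated from male offspring on postnatal day 0. Each library held the NCMs of 1 heart, with 4 FA libraries (replicates 2, 3, 4 and 6) and 4 DE libraries (replicates 1, 3, 5 and 7), and in both groups the cells had been enzymatically dissociated, pre-plated with cytosine arabinoside to remove fibroblasts, and frozen. The methods state n = 3 per group, all 8 libraries were used, and whether neonates shared a dam is not given in the sources used here.

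Immediate early genes are transcribed within minutes of a stimulus from factors that the cell already holds, and their mRNAs decay quickly. The Fos and Jun proteins pair through leucine zippers to form AP-1, a transcription factor of growth, stress and injury responses. In cardiomyocytes these genes are known to respond to mechanical load and hypertrophic stimuli, and in many tissues to the enzymatic dissociation that frees the cells. No undissociated heart was analysed here, and the part of dissociation in the levels was not tested.

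Library totals lay between 17943024 and 39839737 counts. Levels are given as CPM, the count of a gene relative to the library total after trimmed mean of M-values scaling. Differences are log2 fold changes of DE over FA with the standard error (SE) of the edgeR quasi-likelihood fit. The word called is used for a gene that passed both a Benjamini-Hochberg threshold of 0.05 across all tested genes and a difference of at least 25%. Cardiomyocyte markers summed to between 73710 and 79940 CPM in FA and between 64616 and 76075 CPM in DE, with 10 of 12 lower in DE and 3 called, Myh6 (-0.67) and Pln (-0.38) lower and Myh7 (0.53) higher on the log2 scale. The 10 fibroblast markers, none of them at 0, summed to between 2075 and 3571 CPM in FA and between 3781 and 6352 CPM in DE, and all 10 were higher in DE, 4 of them called. In bulk RNA, a change in the number of cells of a type cannot be told apart from a change in RNA per cell. DE replicates 3 and 5 carry the number 12 in their sample names and the other 6 libraries the number 11. What the number stands for is not given in the sources used here, and as number 12 occurs in DE alone, it cannot be told apart from a difference among DE libraries.

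None of the 10 genes was called between DE and FA, where 5.8% of all tested genes were called (536 higher and 332 lower in DE). For none of the 10 did the 4 values of one group lie clear of the other group, where 14.7% of all tested genes had groups that did not overlap. The log2 fold change was above 0 for 7 genes and below 0 for 3, with a median of 0.06 against 0.00 over all tested genes. None of the 10 had an unadjusted p-value under 0.05 in edgeR's quasi-likelihood test, which 3828 of the tested genes had. The count of called genes among the 10 was also 0 under each of the 19 alternatives tried, DESeq2 and limma-voom included.

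**Figure D1:**
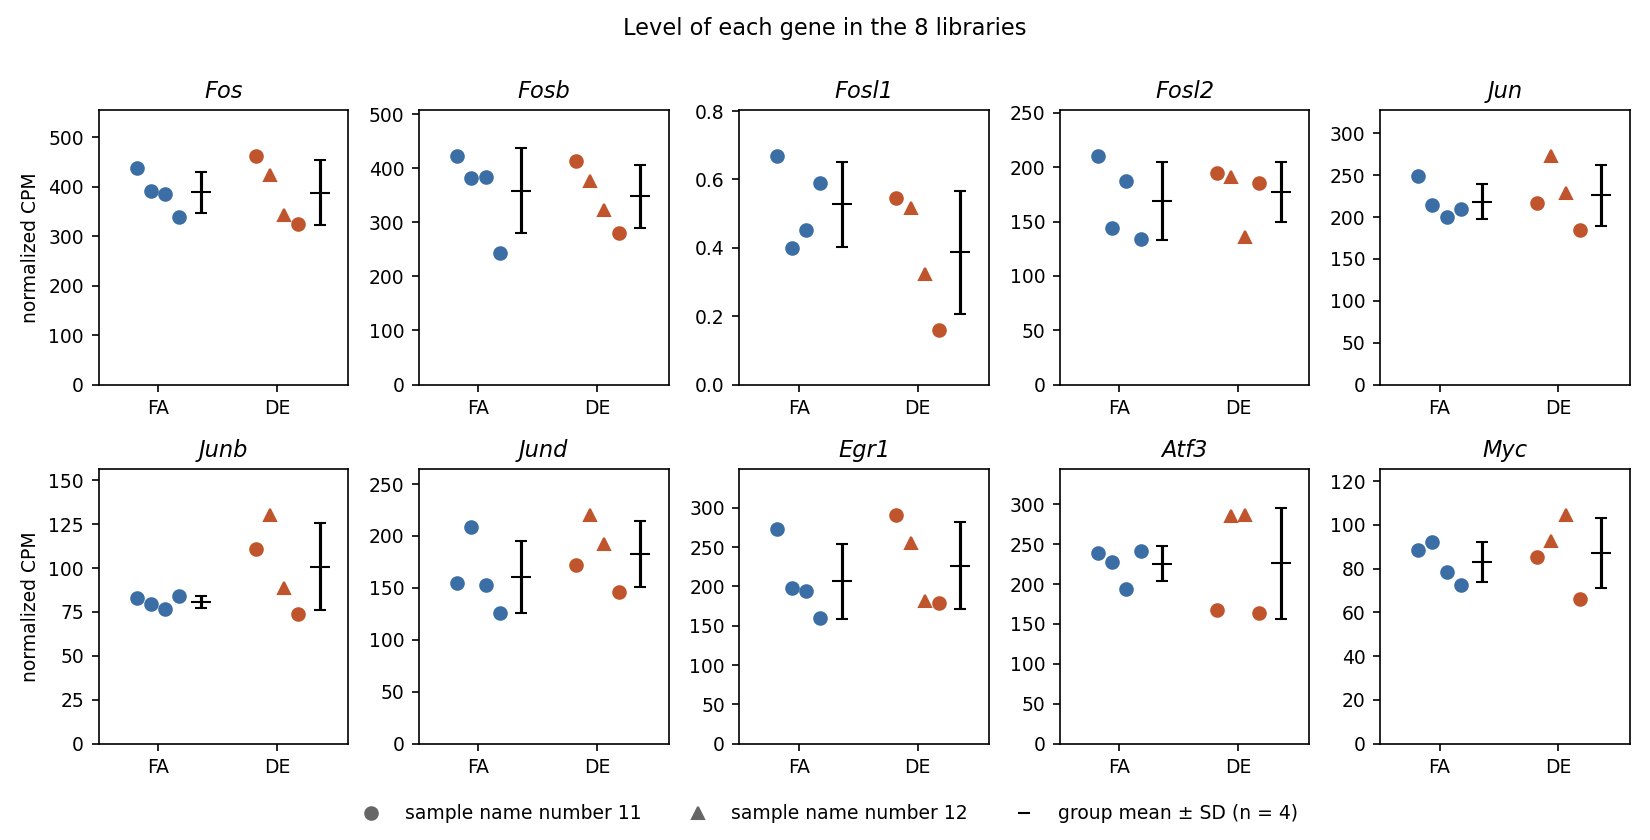
Normalized CPM (y axes, each from 0) of the 10 genes in the 4 FA and 4 DE libraries, 1 point a library, with the group mean ± SD (n = 4) beside the points and the number in the sample name shown by the symbol. FA and DE overlap in every panel, and the DE libraries with number 12 lie above those with number 11 for Atf3, at 285 and 286 against 168 and 164 CPM, and also for Jun, Jund and Myc. Of all tested genes, 29.9% have both DE libraries with number 12 above.

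The promoters of Fos, the gene with the highest level of the 10, and of Atf3, whose DE libraries fell apart into pairs, are shown as the 250 bases before the transcription start, written 5′ to 3′ on the strand of the gene. The sequences are those of RefSeq on GRCm38.p6, from chr12:85473640-85473889 on the plus strand for Fos and from chr1:191183334-191183583 on the minus strand for Atf3. Capitals mark matches to the motifs searched on both strands.
Fos: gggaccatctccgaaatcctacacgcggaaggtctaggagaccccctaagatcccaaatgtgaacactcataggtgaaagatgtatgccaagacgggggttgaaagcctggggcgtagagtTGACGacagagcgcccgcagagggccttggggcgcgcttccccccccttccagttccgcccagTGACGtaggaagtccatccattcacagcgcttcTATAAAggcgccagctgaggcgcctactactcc
Atf3: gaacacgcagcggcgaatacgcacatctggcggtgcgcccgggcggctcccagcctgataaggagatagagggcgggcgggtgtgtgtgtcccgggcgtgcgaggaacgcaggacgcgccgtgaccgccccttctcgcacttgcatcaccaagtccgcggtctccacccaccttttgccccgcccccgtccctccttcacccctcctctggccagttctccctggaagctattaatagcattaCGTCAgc
RefSeq promoters were matched for 7 of the 10 genes, leaving Fosl1, Egr1 and Myc. The shorter core of the cAMP response element (CRE), TGACG, stood in 4 of the 7, and 17.8% of all 32851 promoters of that length hold it. Fos held it at 129 to 125 and at 66 to 62 bases before the start, Fosb at 60 to 56, Junb at 106 to 102 and Atf3, on the opposite strand, at 7 to 3. The EGR site GCGNGGGCG, the sequence bound by Egr1 and its relatives, stood in the promoters of Fosb and Fosl2, against 4.7% of all promoters. A TATA box, TATAAA, was matched in Fos alone at 33 to 28 bases before the start, against 12.4% of all promoters. No match was found in the 7 windows for the full CRE TGACGTCA (1.55% of all promoters), which holds the shorter core, for the AP-1 site TGANTCA (6.75%), for the core of the serum response element (1.47%) or for the E-box CACGTG (6.02%), to which Myc binds with Max. Sites more than 250 bases before the start were not searched, nor were the promoters of Fosl1, Egr1 and Myc. The lack of a match thus holds for these windows and not for the whole promoter. Jun and Jund held no exact match to any of these motifs, and sequences that differ from them by a letter were not counted. The RefSeq start used for Fosb lies inside the span of the gene given below, so that its matches are counted from that start and not from the end of the span. The start of 4 of the 7 promoters, among them those printed, lay within 20 bases of a GENCODE transcript start. The starts of Fosl2, Junb and Jund did not, so that their windows rest on the RefSeq start alone.

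Fos (Entrez 14281, chromosome 12, 85473890 to 85477274) is the best known of the immediate early genes and supplies an AP-1 subunit that needs a Jun partner. It was measured at 438, 391, 384 and 339 CPM in FA replicates 2, 3, 4 and 6, and at 462, 422, 343 and 325 CPM in DE replicates 1, 3, 5 and 7. The highest and the lowest of the 8 values were both in DE, and the FA values lay between them. FA averaged 388 ± 40.6 and DE 388 ± 64.9 CPM (mean ± SD of 4 libraries each), with a log2 fold change of -0.00 (SE 0.13, adjusted p = 0.997). Its 95% interval ran from a fold of 0.820 to 1.22, and of the 10 genes Fos alone had an interval that stayed within 25% in both directions.

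Fosb (Entrez 14282, chromosome 7, 19302696 to 19310118) is the closest paralog of Fos and is induced by the same stimuli. The FA libraries, in the same order, gave 422, 383, 384 and 244 CPM, and the DE libraries 413, 375, 322 and 281 CPM. FA replicate 6 was the lowest of all 8 libraries, the other 3 FA values lay above DE replicates 3, 5 and 7, and the groups overlapped. The log2 fold change was -0.04 (SE 0.17, adjusted p = 0.897), from an FA mean of 358 ± 78.4 and a DE mean of 348 ± 58.0 CPM.

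Fosl2 (Entrez 14284, chromosome 5, 32136472 to 32157840) encodes a Fos-related subunit that lacks the strong activation domain of Fos. It stood at 210.4, 144, 187 and 134 CPM in FA and at 194, 191, 136 and 186 CPM in DE. Within DE, replicate 5 lay apart from the other 3 libraries, at a level near that of FA replicate 6. The log2 fold change was 0.07 (SE 0.16, adjusted p = 0.825). Fosl1 (Entrez 14283, chromosome 19, 5447698 to 5455938), the other Fos-related subunit, was close to the limit of detection, with 25, 8, 8 and 12 counts in FA and 18, 18, 13 and 3 counts in DE. These counts correspond to an FA mean of 0.527 ± 0.124 and a DE mean of 0.386 ± 0.180 CPM. Its log2 fold change of -0.42 (SE 0.36, adjusted p = 0.473) had the widest interval of the 10, from a fold of 0.435 to 1.28, so that a difference of 25% in either direction was not resolved at this depth.

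Jun (Entrez 16476, chromosome 4, 95049036 to 95052222) encodes the founding Jun subunit, which can pair with itself as well as with Fos proteins. It was measured at 248, 214, 200.4 and 209.7 CPM in FA and at 217, 273, 229 and 184 CPM in DE. The DE libraries spanned the FA libraries on both sides. The FA mean of 218 ± 20.97 and the DE mean of 226 ± 36.7 CPM gave a log2 fold change of 0.05 (SE 0.13, adjusted p = 0.834).

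Junb (Entrez 16477, chromosome 8, 84976909 to 84978748), a Jun protein that often limits the activity of Jun, came nearest to a difference. Its FA libraries gave 82.8, 79.6, 76.6 and 83.9 CPM and its DE libraries 111, 130.2, 88.9 and 73.9 CPM. Of the 4 DE libraries 3 lay above every FA library, and DE replicate 7 lay below every one. FA averaged 80.7 ± 3.33 and DE 101 ± 24.7 CPM, a log2 fold change of 0.32 (SE 0.15). The edgeR p-value was 0.0579 before and 0.212 after adjustment, and the 95% interval on the log2 scale ran from -0.01 to 0.66. Without DE replicate 7 the log2 fold change of Junb was 0.44 (adjusted p = 0.0688), and without DE replicate 3 it was 0.17.

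Jund (Entrez 16478, chromosome 8, 70697739 to 70700616) is the Jun gene that resting cells also transcribe steadily. The values were 155, 209, 153 and 126 CPM in FA and 172, 220.1, 193 and 146 CPM in DE. Each group held 1 library above 200 CPM, and the ranges overlapped. The log2 fold change was 0.19 (SE 0.16, adjusted p = 0.4995).

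Egr1 (Entrez 13653) encodes a zinc finger factor that is induced through serum response factor like Fos. The FA libraries gave 274, 198, 194 and 160.4 CPM and the DE libraries 291, 255, 182 and 178 CPM. FA replicate 2 and DE replicates 1 and 3 stood above the other 5 libraries. The log2 fold change was 0.13 (SE 0.19, adjusted p = 0.694).

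Atf3 (Entrez 11910, chromosome 1, 191170296 to 191183333) encodes a stress-induced leucine zipper factor that can pair with Jun proteins and often represses transcription. It was measured at 239, 228, 194 and 241 CPM in FA, and at 168, 285, 286 and 164 CPM in DE. The FA libraries lay together, whereas the DE libraries fell into a pair below every FA library and a pair above every one. The group means lay within their error of each other, FA at 226 ± 21.8 and DE at 226 ± 69.4 CPM, with a log2 fold change of 0.00 (SE 0.19, adjusted p = 0.996). Myc (Entrez 17869, chromosome 15, 61985341 to 61990361), the growth factor-induced partner of Max, gave 88.7, 92.1, 78.2 and 72.6 CPM in FA and 85.2, 92.5, 104 and 66.1 CPM in DE. Its DE libraries again held both the highest and the lowest of the 8 values, and the log2 fold change was 0.07 (SE 0.14, adjusted p = 0.777).

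**Figure D2:**
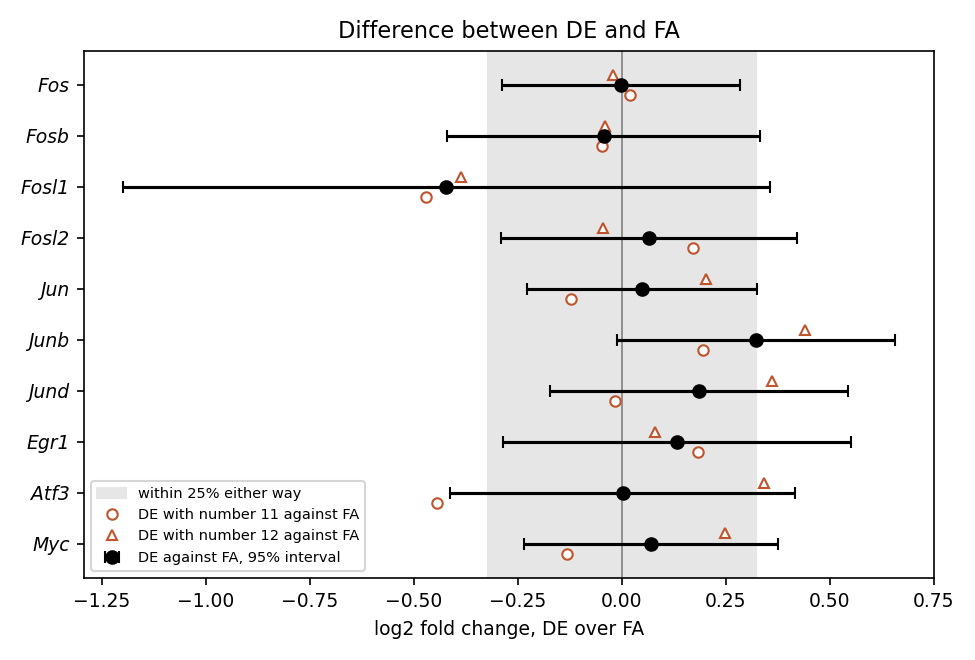
Log2 fold change of DE over FA (x axis) for each gene (y axis), with the 95% interval of edgeR's quasi-likelihood fit (black), and for the DE libraries with number 11 (open circles) and number 12 (open triangles) against FA. The shaded band is a difference of less than 25%, and the interval of Fos alone lies inside it, while the Atf3 symbols for the numbers lie on opposite sides of 0 at -0.44 and 0.34.

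The higher pair of DE libraries for Atf3 was the pair with number 12, and the lower pair the pair with number 11. This comparison was made after the values had been seen. In an edgeR model with FA, DE with number 11 and DE with number 12 as groups, Atf3 was higher with number 12 by 0.79 on the log2 scale (SE 0.14, adjusted p = 0.0339), where 2.06% of all tested genes (309) were called. Both DE libraries with number 12 lay above both with number 11 for 4 of the 10 genes, Atf3, Jun, Jund and Myc, and for 29.9% of all tested genes. Apart from Atf3, the other 9 genes were not called in the comparison, with Myc at 0.38 (adjusted p = 0.185), Jund at 0.38 (adjusted p = 0.271) and Jun at 0.32 (adjusted p = 0.218), and Fos at -0.04 (adjusted p = 0.912) and Fosb at 0.01 (adjusted p = 0.989). Against the 4 FA libraries, Atf3 was at a log2 fold change of -0.44 in DE with number 11 (adjusted p = 0.0703, 2.99% of all tested genes called) and of 0.34 in DE with number 12 (adjusted p = 0.0498, 23.4% of all tested genes called). With 2 libraries on each side, leaving out 1 DE library leaves 1 library for its number, which is then assumed to vary like the other groups. The adjusted p in edgeR was then 0.167, 0.158, 0.255 and 0.112 without DE replicates 1, 3, 5 and 7, so that the call was lost, while the log2 difference stayed between 0.77 and 0.83 in all alternatives tried for it. Hspa1a, an inducible heat shock chaperone named here after its values had been seen, stood at 11.3 and 11.6 CPM in the DE libraries with number 11, at 20.4 and 25.1 CPM in those with number 12, and between 14.3 and 24.3 CPM in FA. Of the 14 heat shock and dissociation genes, 8 had both DE libraries with number 12 above both with number 11 and 0 had both below, whereas Hsp90aa1, Hsp90ab1 and Dnajb4 were among those whose pairs overlapped. Over all 14966 tested genes, 4473 (29.9%) had both libraries with number 12 above and 4543 had both below, so that pairs lying clear of each other were common. Whether these levels move together for a common reason was not tested.

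Every one of the 10 genes varied among the libraries of each group. DE replicate 7 was the lowest of the 8 libraries for 6 genes (Fos, Fosl1, Jun, Junb, Atf3 and Myc) and FA replicate 6 for the other 4 (Fosb, Fosl2, Jund and Egr1). DE replicate 3 lay above the mean of the gene for all 10, and DE replicate 7 for 1. The highest library was FA replicate 2 for Fosb, Fosl1 and Fosl2, DE replicate 1 for Fos and Egr1, DE replicate 3 for the 3 Jun genes, and DE replicate 5 for Atf3 and Myc. Together the 10 genes took between 0.157% and 0.237% of a library's counts, with FA replicate 6 at the low end and DE replicate 3 at the high end. The SD of the CPM was larger in DE than in FA for 7 of the 10.

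The ratio of the highest to the lowest of the 8 libraries was between 1.42 for Fos and 1.81 for Egr1, apart from the thinly counted Fosl1 at 4.18. The spread within groups on the log2 scale was near the middle of the tested genes for Jun and Fos, as 41.4% and 45.5% of them had a smaller one. For Egr1 and Atf3 it was wide, with 79.5% and 79.8% of the tested genes below them.

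**Figure D3:**
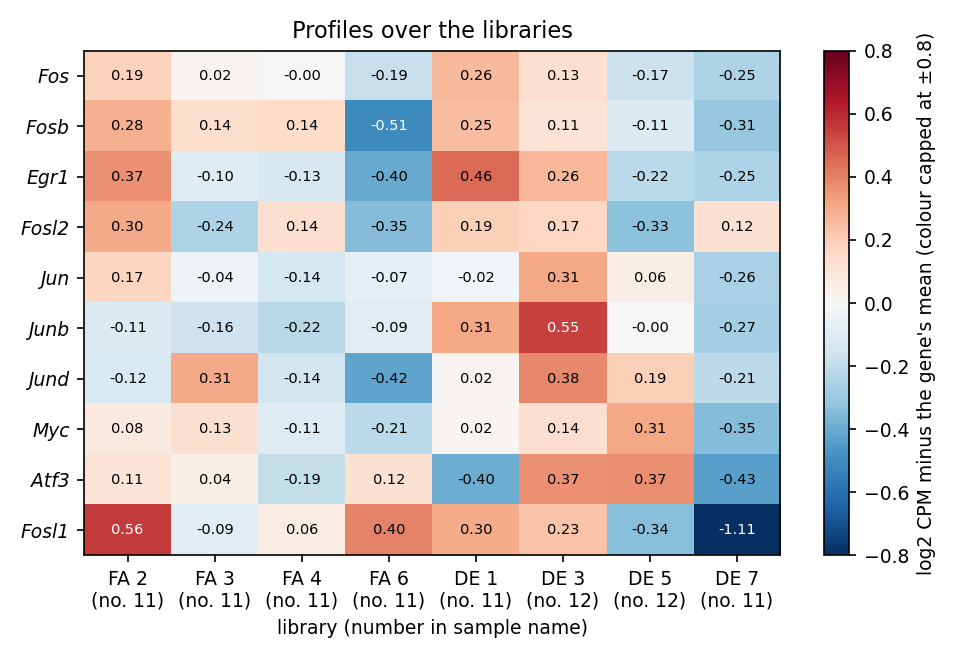
Log2 CPM of each gene minus its own mean over the 8 libraries (rows are genes, columns libraries, with the number in the sample name). Fos, Fosb and Egr1 share high values in FA replicate 2 and DE replicate 1, whereas Atf3 is lowest in DE replicates 1 and 7 and highest in DE replicates 3 and 5.

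Likeness of profiles was measured as the root mean square difference of these centred log2 values over the 8 libraries, where a smaller value is a closer match. It is a description over libraries that also share depth and isolation, and no test was made. The closest pairs were Fos and Fosb at 0.140, Jun and Myc at 0.143, and Fos and Egr1 at 0.145. Atf3 was nearest to Jun at 0.202 and lay far from Fosl2 at 0.452. Among 13120 other tested genes that averaged 1 CPM or more, those nearest to Fos were Sema6c (a semaphorin) at 0.0628, Ficd (an enzyme that modifies a chaperone of the endoplasmic reticulum) and Hbegf (a heparin-binding growth factor) both at 0.0651, Dusp5 (a phosphatase of ERK kinases) at 0.0663 and Fut8 (a fucosyltransferase) at 0.0749. Hbegf and Dusp5 also stand in the lists of AP-1 target and immediate early genes described next. The nearest gene to Jun was Hook2 at 0.0562, to Junb Cap1 at 0.0743, to Jund Hddc3 at 0.0649, to Myc Pif1 at 0.0650 and to Atf3 Slc25a22 at 0.0812. For Fosb it was Klhl18 at 0.0950, for Egr1 Ildr2 at 0.129, for Fosl2 Lrrc3 at 0.0810 and for Fosl1 Tmem260 at 0.181.

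Levels of different genes were compared as CPM per kilobase of exon, with exon lengths from GENCODE M21. Fos had the highest level, 184 ± 23.8 CPM per kilobase (SD over 8 libraries), which was above the next gene in all 8 libraries and above 98.02% of the tested genes with a length. Atf3 at 105 ± 22.1, Jund at 103 ± 19.7 and Fosb at 93.3 ± 16.9 followed, and their neighbours in that order could not be separated, as Atf3 exceeded Jund in 4 of 8 libraries and Jund exceeded Fosb in 5. Jun at 69.6 ± 8.77 lay below Fosb in 7 libraries and above Junb, at 50.2 ± 10.8, in all 8. Junb and Egr1, at 48.3 ± 10.9, changed places, with Junb the higher in 4 of 8. Myc at 34.7 ± 5.02 and Fosl2 at 26.4 ± 4.60 stood lower, and Fosl1 was far below at 0.245 ± 0.0867, above 5.58% of the tested genes. Apart from Fosl1, every one of the genes lay above 84.1% or more of the tested genes.

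**Figure D4:**
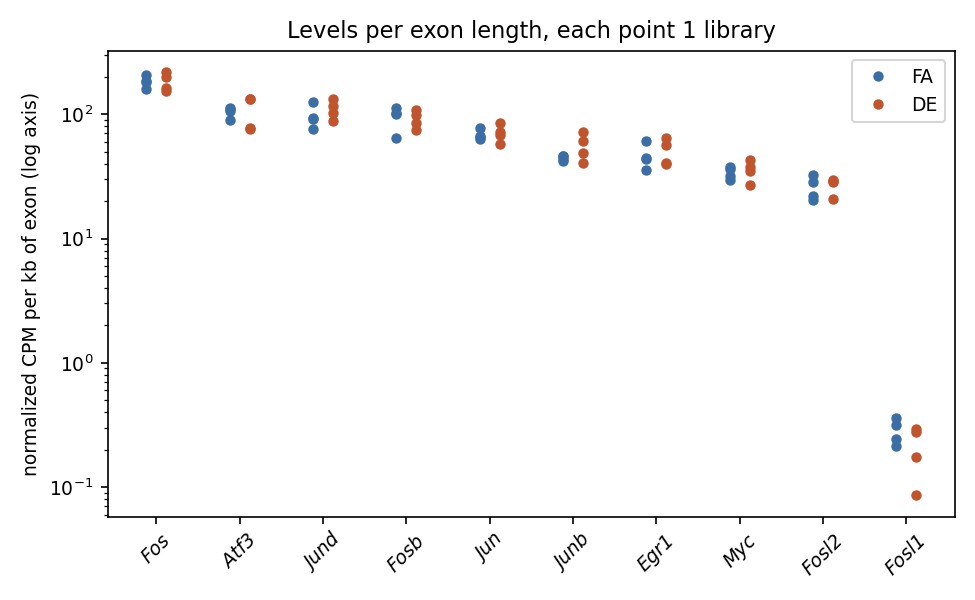
Normalized CPM per kilobase of exon (log axis) of each gene in the 8 libraries, 1 point a library, in falling order of the mean, with FA left and DE right of each position. Fos leads in every library at 184 on average, the next genes overlap, and Fosl1 lies apart at 0.245.

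As shares of the summed Fos family level per kilobase, Fos made up 60.7% ± 3.18 in FA and 60.6% ± 0.50 in DE, Fosb 30.8% ± 3.06 and 30.3% ± 1.13, and Fosl2 8.43% ± 0.961 and 8.999% ± 1.45 (SD, n = 4 each). Within the Jun family, Jund made up 45.7% ± 5.51 in FA and 46.4% ± 1.92 in DE, Jun 32.8% ± 3.41 and 30.1% ± 0.796, and Junb 21.5% ± 2.51 and 23.5% ± 2.56. For every one of these shares the group means differed by less than 1 SD of the FA libraries, while the difference for Jun was larger than the SD of the DE libraries. Fosl1 made up 0.0943% ± 0.0268 of the Fos family in FA and 0.0660% ± 0.0234 in DE. The ratio of the Fos family to the Jun family was 1.62, 1.31, 1.59 and 1.31 in the FA libraries and 1.54, 1.14, 1.14 and 1.38 in the DE libraries. The lowest ratios, both 1.14, were those of DE replicates 3 and 5, and the groups overlapped.

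Gene structure, which the choice by name did not use, was compact for most of the 10. Jun, Junb and Jund have 1 exon, as 2.77% of the tested genes with a model do, Egr1 has 2, Myc 3 and the remaining genes 4. The median gene span was 4385.5 bases against 22617 over the tested genes, with Fosl2, at 21369 bases, and Atf3, at 13038, the longest. The pentamer ATTTA, the core of AU-rich elements that mark mRNAs for decay, was present in the 3′ UTR of all 10, with 67.4% of the tested genes holding at least 1. Its median density was 2.20 per kilobase against 1.27 over the tested genes, and it was densest in Fos at 4.91, Myc at 4.52 and Junb at 4.12 per kilobase. Fosl2 held the most copies, 8, in a long 3′ UTR at 1.72 per kilobase.

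The wider pathway was read from lists written from general knowledge and described by counts and medians. Of 41 other immediate early genes tested, 1 was called (2.44%), 31 were higher and 10 lower in DE, and the median log2 fold change was 0.19. Over all tested genes, 5.8% were called, 50.5% were higher in DE and the median was 0.00. The called gene was Per1, a repressor of the circadian clock that is also induced as an immediate early gene. It stood at 103, 102, 104 and 64.5 CPM in FA and at 169, 154, 161 and 183 CPM in DE, with no overlap, and rose by a log2 fold change of 0.84 (SE 0.15, adjusted p = 0.0103 in edgeR), a call that held without any 1 library. The most abundant of the list, Ctgf, a matricellular protein, and Mcl1, an inhibitor of apoptosis, had log2 fold changes of 0.31 (adjusted p = 0.168) and -0.04 (adjusted p = 0.860).

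Upstream of these genes lie serum response factor, its partners, and the kinase cascades that end in ERK, JNK and p38. Of 31 such genes, 12 were higher and 19 lower in DE with a median of -0.07, and 1 was called (3.23%). This was Mapk10, the JNK isoform best known from brain and heart, at 16.3, 12.3, 13.0 and 16.1 CPM in FA and 11.2, 8.55, 7.83 and 10.02 CPM in DE, a log2 fold change of -0.62 (SE 0.15, adjusted p = 0.0353). The call of Mapk10 was lost without FA replicate 2, 4 or 6 or DE replicate 3 or 5, at adjusted p-values up to 0.121, and with the number in the sample name as a term, at -0.44 (adjusted p = 0.151). The most abundant, Mapkapk2, a kinase that p38 activates, had a log2 fold change of 0.12 (adjusted p = 0.543). Among 17 other AP-1 and related leucine zipper genes none was called, 10 were higher and 7 lower, and the median was 0.05. The unadjusted edgeR p-value was under 0.05 for 3 of these 17 (Jdp2, Batf3 and Creb1), of which the likelihood ratio test of edgeR called all 3 and DESeq2 called Jdp2 and Creb1. Its most abundant genes, Atf4 of the integrated stress response and Nfil3, had log2 fold changes of 0.00 (adjusted p = 0.989) and 0.05 (adjusted p = 0.803).

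**Figure D5:**
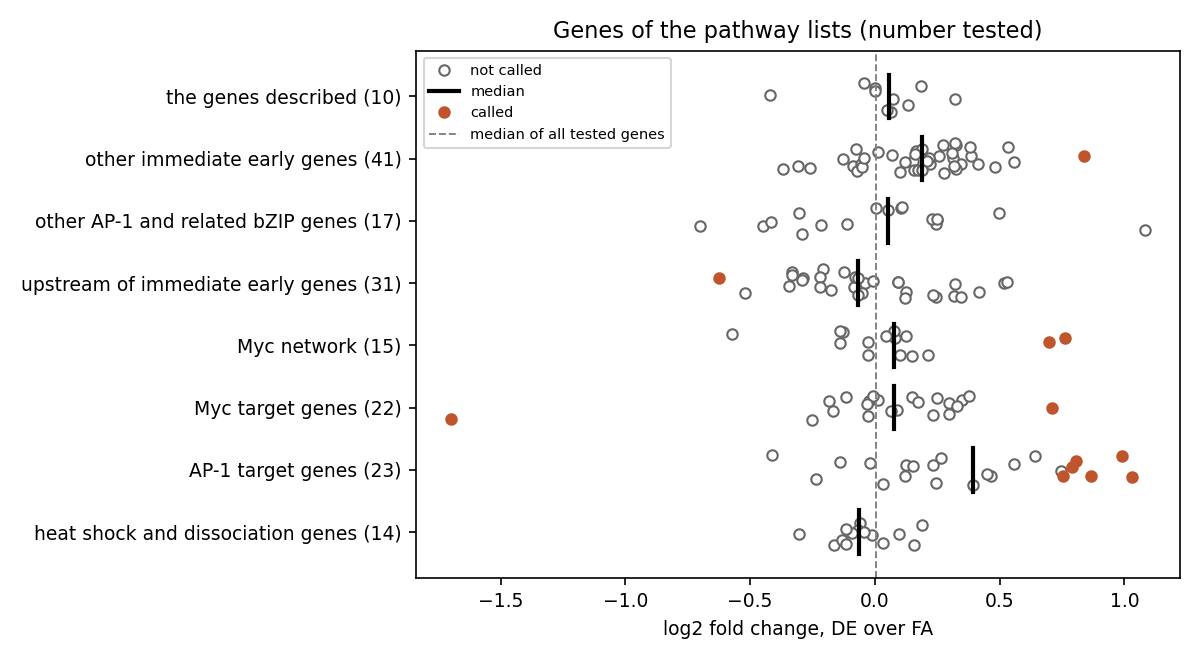
Log2 fold change of DE over FA (x axis) for each tested gene of the lists (y axis, number tested in parentheses), with called genes filled, the list's median as a black bar and the median of all tested genes dashed. The 10 genes described lie around 0 with a median of 0.06 and none called, while the AP-1 target genes have a median of 0.39 and 6 called.

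Of 23 AP-1 target genes tested, 6 were called, all higher in DE (26.1%, against 5.8% of all tested genes in either direction), 19 were higher and 4 lower, and the median log2 fold change was 0.39. The called genes were Plau (the protease urokinase, 1.03, adjusted p = 0.0364), S100a10 (a calcium-binding family protein, 0.99, adjusted p = 0.0123), Ccnd1 (cyclin D1, 0.87, adjusted p = 0.00493), Ccl2 (a monocyte chemoattractant, 0.81, adjusted p = 0.0224), Vim (vimentin, 0.79, adjusted p = 0.0103) and Hmga2 (a chromatin protein, 0.75, adjusted p = 0.0442). Vim, the most abundant of them, stood at 622, 706, 642 and 890 CPM in FA and at 1102, 1497, 1193 and 1158 CPM in DE. Mmp2, the next most abundant of the list, had a log2 fold change of 0.56 (adjusted p = 0.0826). The fibroblast markers, whose summed levels are given above, were higher in the same libraries. Of the markers of other cells tested, 9 of 10 endothelial (summed 1106 to 1460 CPM in FA and 1219 to 1814 in DE, none called), 8 of 9 leukocyte (14.9 to 22.4 and 20.6 to 31.3 CPM, Itgam called) and 6 of 6 erythroid genes (759 to 1880.4 and 1209 to 2022 CPM, Slc4a1 called) were also higher in DE. Smooth muscle and pericyte markers were higher for 6 and lower for 3, and their sums, 1624 to 2192 CPM in FA, lay at 1207 to 1614 CPM in DE, with none called. Of the 5 epicardial and Schwann cell markers tested, 2 were higher and 3 lower, with none called. The part of these cells in the differences was not tested. Ccnd1, Vim and S100a10 kept their call without any 1 library. The count fell to 3 without FA replicate 2, 3 or 4 or DE replicate 3, to 3 with the number of the sample name as a term, and to 1 over the libraries with number 11 alone, and rose to 9 with DESeq2 or the likelihood ratio test of edgeR.

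Of 15 genes of the Myc network, which holds the partners and antagonists of Myc, 2 were called (13.3%, against 5.8% of all tested genes), 9 were higher and 6 lower, and the median was 0.08. Mxd3, which competes with Myc for Max, had a log2 fold change of 0.76 (SE 0.18, adjusted p = 0.0322) and Bin1, a Myc-interacting protein that also shapes cardiac membranes, of 0.70 (SE 0.17, adjusted p = 0.0389). Both calls were lost without FA replicate 2, 3 or 4 or DE replicate 3 or 5, and that of Bin1 also without DE replicate 7, at adjusted p-values up to 0.109 for Mxd3 and 0.121 for Bin1. With the number in the sample name as a term they were also lost, Mxd3 at 0.57 (adjusted p = 0.132) and Bin1 at 0.40 (adjusted p = 0.192). The most abundant genes, Pim1 and Mga, had log2 fold changes of 0.13 (adjusted p = 0.579) and -0.57 (adjusted p = 0.138). Of 22 known Myc targets, 13 were higher and 9 lower with a median of 0.08, and 2 were called in opposite directions (9.09%). Ldha, a lactate dehydrogenase subunit and the most abundant of the list, rose by 0.71 (SE 0.10, adjusted p = 0.00406), and Tfrc, the transferrin receptor, fell by 1.70 on the log2 scale (SE 0.12, adjusted p = 5.37e-05). Both kept their call under all 19 alternatives. Ncl, encoding nucleolin and next in abundance, had a log2 fold change of -0.03 (adjusted p = 0.886).

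Of 14 heat shock and dissociation genes none was called, 4 were higher and 10 lower, and the median was -0.06. The unadjusted edgeR p-value was under 0.05 for 1 of them. Hsp90ab1 and Hspa8, the most abundant chaperones of the list, had log2 fold changes of 0.03 (adjusted p = 0.880) and -0.06 (adjusted p = 0.750).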

How the data were processed

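Poly-A RNA of 4 FA and 4 DE libraries was sequenced with a stranded kit. The authors aligned reads to mm10 with TopHat and the Ensembl transcriptome, marked duplicates with Picard but kept them, and used featureCounts for counting. The deposited table holds raw counts for Entrez genes. The annotation and strand setting of the counting and the handling of reads on several genes are not given in the sources used here, which bears on overlapping genes, and retained duplicates overstate the precision of counts.

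Symbols and positions came from a RefSeq table on GRCm38.p6, which matched 25275 of 27179 genes. With edgeR 4.0.16 in R 4.3.3, filterByExpr (10 counts) kept 14966 genes, and glmQLFit and glmQLFTest were run with exposure as the only term, trimmed mean of M-values (TMM) factors and p-values adjusted over the whole tested table by Benjamini-Hochberg. The code was tested on simulated data. Replicates were separate hearts by the methods, and no pair agreed within sampling noise. The closest pair, FA replicates 2 and 4, had a mean chi-square of its counts of 5.06 per gene, against 16.0 or more for the others. The members and lists were chosen with earlier results of these data known, so that the lists are no independent support. Beyond the 10 genes, those named were called genes and the 2 most abundant genes of each pathway list, and the nearest profiles. Of these, 1 gene is not reported here. Hspa1a, Hsp90aa1, Dnajb4, Jdp2, Batf3, Creb1, Klf2, Nfkbia, Itgam and Slc4a1 were named after their values had been seen. Alternatives were DESeq2 1.42.0, limma-voom (limma 3.58.1), edgeR's likelihood ratio test, the 25% built into the test, 3 other scalings, 2 other filters, the number in the sample name, and each library left out. The comparison of DE numbers and the alternatives for the lists other than immediate early genes were added after the data were seen. Exon lengths were known for 92.5% of tested genes, and 4 list symbols were matched by a synonym.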

Additional observations from a re-analysis of the deposited data

Results flagged for a closer look

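Fosl2 in DE replicate 5, at 136 CPM, lay apart from the other 3 DE libraries, the nearest of which was at 186 CPM, with a gap of 0.850 of the range of the group. It was the only such value among the 20 groups examined (10 genes in FA and in DE), and chance alone would mark about 1 in 20. Without DE replicate 5 the log2 fold change of Fosl2 was 0.17 in place of 0.07, and it was not called.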

How the results depend on the processing

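The 10 genes had 189 log2 fold changes over the alternatives, 157 with the direction given in the report and 32 with the other, and none was called. No paired analysis was made, as the sources used here give no pairing between FA and DE libraries. Fosl1 was not tested with a mean of at least 1 CPM. The cause of the changes below was not tested, other than fewer libraries where libraries were left out.

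The log2 fold change of Fos turned positive with DESeq2 (0.000378), library totals alone (0.0737), upper quartile scaling (0.0256), relative log expression scaling (0.000377), no filter (0.00784), a mean of at least 1 CPM (0.000348), the number in the sample name as a term (0.0191) and number 11 alone (0.0142). Library totals alone, which moved the median of all genes to 0.08, gave Fosb 0.0312, and limma-voom gave Atf3 -0.0464. With the number as a term, Jun was at -0.12, Jund at -0.0154, Atf3 at -0.44 and Myc at -0.13, and with number 11 alone they were at -0.13, -0.0207, -0.45 and -0.14. With 1 library left out, the ranges were -0.0977 to 0.0684 for Fos, -0.19 to 0.0447 for Fosb, -0.0315 to 0.19 for Fosl2, -0.0558 to 0.13 for Jun, -0.0133 to 0.30 for Egr1, -0.13 to 0.12 for Atf3 and -0.0277 to 0.18 for Myc, all crossing 0. Junb lay between 0.17 and 0.44 in all alternatives, with an unadjusted p under 0.05 in 5 of 19. With 1 library left out, Jund ranged from 0.082 to 0.34, the highest without FA replicate 3, and Fosl1 from -0.61 to -0.25. The unadjusted p of Jund was under 0.05 in 1 of 19 alternatives.

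Over all tested genes, 868 were called, against 1633 with DESeq2, 1603 with the likelihood ratio test, 114 with the 25% built into the test, 448 with the number as a term, 260 with number 11 alone, and 237 to 1168 with 1 library left out. Of the other immediate early genes, 1 was called, against 3 with DESeq2 (Klf2, Nfkbia and Per1), 2 with the likelihood ratio test, library totals alone or no filter (Klf2 and Per1), 0 with the 25% built into the test, and 1 to 2 with 1 library left out. Of the AP-1 target genes, 6 were called, against 1 with the 25% built into the test or number 11 alone, 3 with the number as a term, 9 with DESeq2 or the likelihood ratio test, 8 with library totals alone, and 3 to 7 with 1 library left out. Of the fibroblast markers, 4 were called, against 8 with DESeq2 or the likelihood ratio test and 1 with the 25% built into the test. Only Col1a1 kept a call without FA replicate 2, 3 or 4 or DE replicate 3. With number 11 alone, Mapk10 was at -0.45 (adjusted p = 0.188), Mxd3 at 0.56 (adjusted p = 0.181) and Bin1 at 0.39 (adjusted p = 0.232), and none of these was called. The call of Atf3 between the numbers within DE was lost without any 1 DE library, at log2 differences of 0.77 to 0.83 and adjusted p-values from 8.43e-05 to 0.255 over its 13 alternatives. Fosl1, with 105 counts in all, is limited by depth.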
